A study of Sus scrofa with 8 samples.

Results

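The nasal tissue libraries of sows were divided into 3 libraries rich in transcripts of motile cilia (control 3, androstenone 1 and androstenone 2) and 4 libraries poor in them (control 2, control 4, androstenone 3 and androstenone 4). These were 7 of the 8 libraries of the series. The sides were chosen by measured expression levels in these same libraries, with FOXJ1 and STOML3 marking the cilia-rich side and FBLN1 and ANO2 the cilia-poor side, so that every contrast between the sides is a description without a test. Control 1, which held only 4178330 counts and had intermediate levels, was left out of both sides and its values are given beside them.

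RNA-seq was made from olfactory epithelium (OE), which holds the sensory neurons of smell, dissected from 4 sows. All were offspring of a Landrace sire and a Rongchang dam, were 8 months old, were in estrus and were healthy. Boarmate, a commercial spray with the boar pheromone androstenone as its main agent, was applied to the nasal cavity of 2 sows, and the OE was taken 30 min later. The 2 control sows received no spray at all, so that the spraying itself and its carrier were not controlled for. OE from the left and from the right side were sequenced separately, which gave 4 libraries per group, and the labels do not tell which of them shared a sow. Each side of the division holds sprayed and unsprayed tissue, with 1 control and 2 androstenone libraries among the cilia-rich and 2 of each among the cilia-poor. The division is therefore not a contrast of sprayed with unsprayed tissue. It is used here to describe the dissected tissue, and its cause was not tested. Differences between the sows cannot be told apart from it. Libraries are called by their group and number, and the numbers carry no order.

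The nasal cavity is lined in part by respiratory epithelium, in which multiciliated cells carry many motile cilia that move mucus, and in part by olfactory epithelium, in which neurons carry immotile cilia with the odorant receptors. A motile cilium is built on a basal body around an axoneme of microtubule doublets and a central pair, driven by dynein arms and supplied by intraflagellar transport. Under the epithelium lies a lamina propria with fibroblasts, vessels, nerves and glands, and under that the bone and cartilage of the turbinates and septum.

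Values are CPM, the authors' estimated counts scaled to a common library size after TMM normalization, and CPM are compared between libraries only, never between genes. Depth was 81580146 to 100685566 counts in the 7 libraries. Before the TMM factors are applied, 3 counts stand for 0.0298 to 0.0368 CPM there and for 0.718 CPM in control 1. On the CPM scale used here, each of these floors is further divided by the TMM factor of its library. In control 4 the top 10 genes by count made up 29.4% of the library, against 6.57% to 9.02% elsewhere, and its TMM factor was 0.687. A gene is called higher on a side when all its libraries on that side lie above all those of the other and the geometric means of CPM + 0.1 differ at least 2-fold. Among the 15919 genes with a mean of at least 1 CPM, 1758 (11.0%) were higher in the cilia-rich libraries and 1611 (10.1%) were lower, and the median log2 ratio over all of them was -0.01. In bulk tissue, fewer cells of a type and less RNA per cell cannot be told apart.

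FOXJ1 (ENSSSCG00000017187), the transcription factor that switches on the motile cilium genes, lies on chromosome 12 at 5307370 to 5312117 of Sscrofa11.1 in the RefSeq annotation. It stood at 563 CPM in control 3, 752 in androstenone 1 and 942 in androstenone 2. In the cilia-poor libraries it stood at 162 CPM in control 2, 146 in control 4, 250 in androstenone 3 and 217 in androstenone 4. The sides did not overlap, the ratio was 3.88-fold, and control 1 lay between them at 352 CPM.

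STOML3 (chromosome 11, 14131203 to 14151361) encodes a stomatin-like protein found in the cilia of the airway and of olfactory neurons. It stood at 224, 216 and 215 CPM in control 3, androstenone 1 and androstenone 2. In control 2, control 4, androstenone 3 and androstenone 4 it stood at 48.8, 51.9, 66.4 and 52.7 CPM, with 92.9 CPM in control 1. The cilia-rich libraries were almost level with each other, and the ratio was 3.99-fold.

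FBLN1 (chromosome 5, 3839498 to 3927178), which encodes fibulin 1 of the connective tissue matrix, had the opposite pattern. It stood at 32.9 CPM in control 3, 105 in androstenone 1 and 20.5 in androstenone 2. The cilia-poor libraries held 514 CPM in control 2, 343 in control 4, 830 in androstenone 3 and 643 in androstenone 4, and control 1 held 434, inside their range. The cilia-poor libraries were 13.4-fold higher in geometric mean, and androstenone 1 stood above the other cilia-rich libraries.

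ANO2 (chromosome 5, 64660047 to 65002453), the calcium-gated chloride channel that amplifies the odorant response in olfactory neurons, was 9.16-fold higher in the cilia-poor libraries. It stood at 19.0, 52.4 and 19.3 CPM in control 3, androstenone 1 and androstenone 2. In control 2, control 4, androstenone 3 and androstenone 4 it stood at 264, 196, 292 and 243 CPM, with 159 CPM in control 1. Androstenone 1 again stood highest among the cilia-rich libraries.

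**Figure D1:**
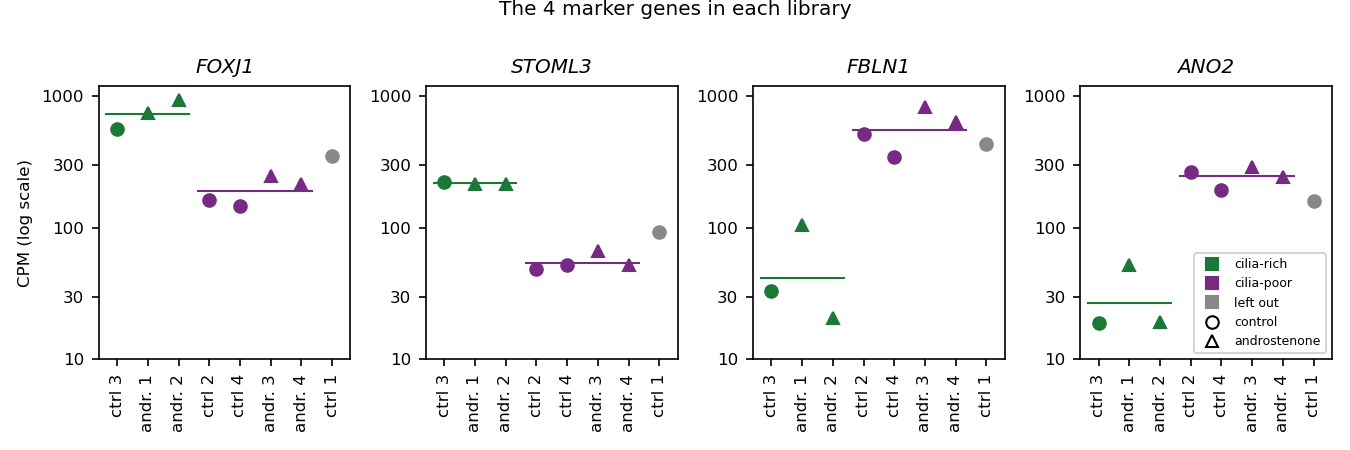
CPM (log scale) of the 4 genes that marked the division, by library, with circles for control and triangles for androstenone libraries and lines for the geometric mean of each side. FOXJ1 and STOML3 are high in the 3 cilia-rich libraries, FBLN1 and ANO2 in the 4 cilia-poor libraries, and the sides overlap for none of the 4 genes.

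The labels call the tissue OE, and ANO2 is a neuronal gene there, but several defining genes of olfactory neurons were at or near 0 on both sides. Of the matched genes, 12 of 17 of the olfactory transduction list and 5 of 15 of the immature neuron list reached a mean of 1 CPM. RTP2, a chaperone that brings odorant receptors to the cell surface, had no count in any library, and its relative RTP1 did not exceed 0.109 CPM. GNG13, a G protein subunit of sensory neurons, did not exceed 0.0778 CPM in the 7 libraries. GFY, LHX2, NEUROD1 and NEUROG1, which act in olfactory neurons or their precursors, likewise did not reach 0.2 CPM in any of the 7 libraries. These 7 genes were singled out after their values were seen.

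Of those 12 transduction genes, 4 were higher in the cilia-rich libraries and 2 were lower, with a median log2 ratio of 0.70. Over all genes, 11.0% were higher and 10.1% were lower. STOML3 and ANO2 marked the division, and without them 3 of 10 were higher and 1 was lower. CNGA2, a subunit of the cation channel of the odorant response, stood at 3.69 CPM in control 3, 12.2 in androstenone 1 and 11.7 in androstenone 2. In the cilia-poor libraries it stood at 1.05, 0.737, 1.23 and 0.945 CPM in the order of control 2, control 4, androstenone 3 and androstenone 4. So CNGA2 stood on the opposite side from ANO2, 7.62-fold higher in the cilia-rich libraries, and CNGA4, its partner subunit, overlapped between the sides at 0.185 to 1.70 CPM. The other higher genes were STOML3, SLC24A4 and PDE1C, and the other lower gene was REEP1, which lost its call without control 4. Without that library 5 of the list were higher and 1 was lower, beside 11.6% and 11.0% of all genes. Of the 5 immature neuron genes measured, only NCAM1, an adhesion molecule of nerves and of other tissues, was lower, and it was at 373 CPM in control 4 against 9.74 to 88.9 CPM in the other cilia-poor libraries.

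The genes of the motile axoneme were higher in the cilia-rich libraries across every part of the structure. Over 7 lists of axoneme and assembly genes, with 90 genes fixed, 84 matched and 83 measured at 1 CPM or more, 82 were higher and none was lower, against 11.0% of all genes. All 83 had no overlap between the sides. At any ratio, 3509 of the 15919 genes were higher without overlap and 3074 were lower. Their median log2 ratio was 2.07, a 4.20-fold difference, with a range from 0.96 to 2.85. Summed over the lists, they made up 21443 CPM in control 3, 16206 in androstenone 1 and 16836 in androstenone 2. The sums of the cilia-poor libraries were 3524 CPM in control 2, 4496 in control 4, 5345 in androstenone 3 and 4561 in androstenone 4. Control 1 summed to 7381 CPM, and it lay between the sides for 65 of the 83 genes.

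Dynein arms are the motors that slide the doublets. All 10 measured genes of the outer arm and all 10 of the inner arm were higher, with medians of 2.06 and 2.22 on the log2 scale. DNAI1, an intermediate chain of the outer arm, stood at 174, 178 and 176 CPM in the cilia-rich libraries control 3, androstenone 1 and androstenone 2. In control 2, control 4, androstenone 3 and androstenone 4 it stood at 26.4, 33.6, 40.7 and 30.4 CPM, a 5.43-fold difference with a spread within the cilia-rich side of a few CPM. DNALI1, a light chain of the inner arm, had the largest ratio of the axoneme genes, 7.20-fold, with 124 to 136 CPM on the cilia-rich side and 13.7 to 22.9 on the other. Among the heavy chains of the inner arm, DNAH6 had a ratio of 5.15-fold, DNAH2 of 5.03-fold and DNAH10 of 4.65-fold.

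The factors that fold dyneins in the cytoplasm before they enter the cilium were higher for 11 of 12 genes. DNAAF6 had the largest ratio of them, at 6.56-fold, and DNAAF3 followed at 5.68-fold. DNAAF2 was the exception, with a ratio of 0.96 on the log2 scale, just below the 2-fold limit, and its sides did not overlap. DNAAF5, at 1.01, was just above the limit and was below it without control 4. DNAAF2 and DNAAF5 were named after their values were seen, as the members next to the limit.

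Radial spokes carry the signal of the central pair to the dyneins, and nexin links hold neighbouring doublets together. All 11 radial spoke genes were higher (median 2.07), with CFAP61 at 4.90-fold, ROPN1L at 4.81-fold, NME5 at 4.21-fold and RSPH1 at 3.97-fold. All 10 central pair genes were higher (median 2.07), led by SPAG17 at 5.07-fold, and all 10 nexin link genes were higher with a lower median of 1.69. All 20 measured proteins of the doublet lumen were higher as well (median 2.11), among them RIBC1 at 5.46-fold, CFAP52 at 5.28-fold, CFAP45 at 4.94-fold and TEKT1 at 4.88-fold.

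Intraflagellar transport moves cargo along the axoneme, and the BBS proteins sort membrane proteins of cilia. These serve immotile cilia too. Of 26 genes, 23 were higher in the cilia-rich libraries, against 11.0% of all genes. Their median log2 ratio over the 26 was 1.49, below that of each of the 7 axoneme lists. KIF17, a kinesin of cilia, had the largest ratio, at 5.37-fold, with 51.6 to 54.8 CPM on the cilia-rich side and 8.29 to 10.7 on the other. The 3 others, named after their values were seen, were TTC21B (0.04), BBS7 (0.43) and BBS1 (0.98 on the log2 scale).

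**Figure D2:**
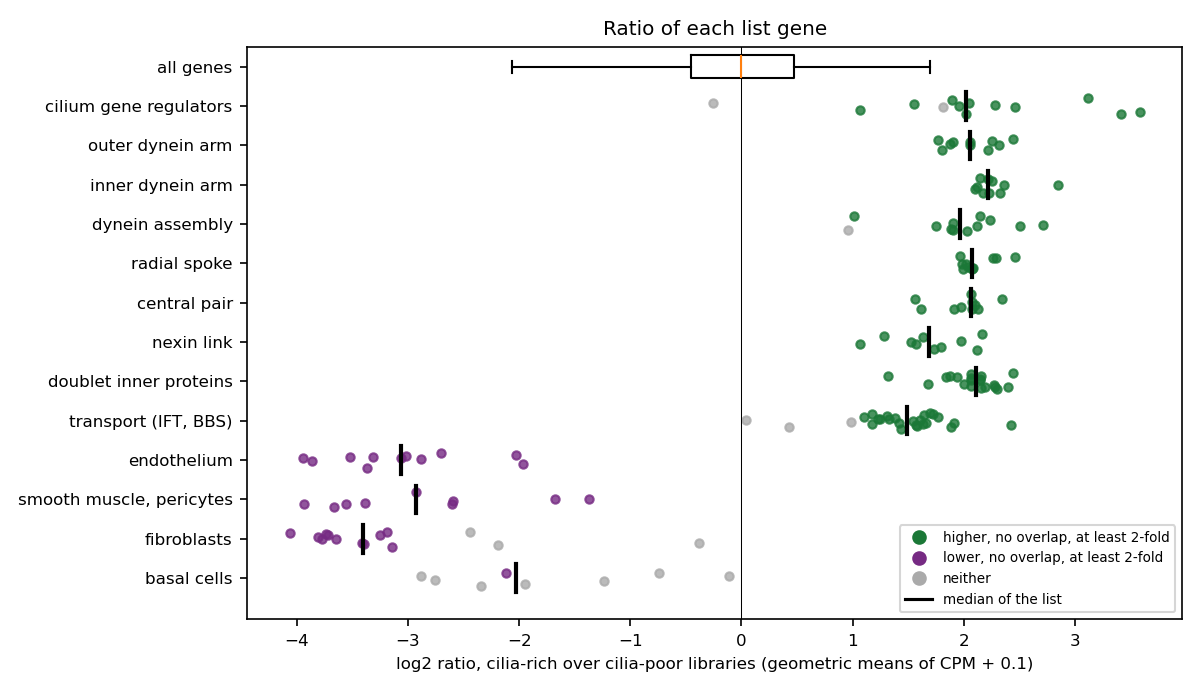
Log2 ratio of cilia-rich over cilia-poor libraries for each gene of 13 lists (points, with the list median as a bar), under a box for all 15919 genes (quartiles, with whiskers from the 5th to the 95th percentile). The axoneme lists sit near 2 with little spread, transport genes lower, and endothelium, smooth muscle and fibroblast genes near -3.

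The cilia-rich libraries differed among themselves in the genes that start cilium formation. Of 13 regulators of the multiciliated cell programme, 11 were higher in the cilia-rich libraries, against 11.0% of all genes, with a median log2 ratio of 2.02. FOXJ1 among them marked the division, and without it the count was 10 of 12. RFX2 and RFX3, which act with FOXJ1 on cilium genes, were even within that side. RFX2 stood at 142 to 162 CPM against 34.2 to 44.1, and RFX3 at 22.9 to 25.8 CPM against 2.64 to 6.97. MYB, which acts early in the programme, stood at 103 to 124 CPM against 21.8 to 35.5.

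The genes of centriole amplification, the step in which a cell makes the many basal bodies of its cilia, were not even. MCIDAS, the coregulator that starts it, stood at 18.8 CPM in control 3, 123 in androstenone 1 and 180 in androstenone 2. In control 2, control 4, androstenone 3 and androstenone 4 it stood at 5.17, 4.63, 10.5 and 9.02 CPM. Control 3 was thus much nearer to the cilia-poor libraries than to the other cilia-rich ones.

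CCNO, a cyclin needed for the same step, followed MCIDAS, with 15.7, 125 and 168 CPM in control 3, androstenone 1 and androstenone 2. Its cilia-poor libraries held 3.23, 4.45, 9.63 and 7.47 CPM in the order of control 2, control 4, androstenone 3 and androstenone 4. PLK4, the kinase of centriole duplication, stood at 17.1, 80.3 and 98.3 CPM on the cilia-rich side and at 15.5, 8.80, 16.6 and 19.6 on the other. For PLK4, control 3 lay within the cilia-poor range, so that the sides overlapped.

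CDC20B, which lies beside CCNO in the same gene cluster in vertebrates, stood at 17.6, 48.0 and 63.1 CPM on the cilia-rich side and at 1.82 to 6.76 on the other. DEUP1, a scaffold of the deuterosome on which these centrioles form, differed less within the side, at 113, 155 and 178 CPM, against 17.7 to 33.1 in the cilia-poor libraries. MCIDAS, CCNO, CDC20B and PLK4 were singled out after their values were seen.

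The order of the same libraries was reversed for most axoneme genes. Control 3 was the highest of all 8 libraries for 57 of the 83 axoneme and assembly genes, for 10 of 10 central pair genes and for 9 of 10 outer arm genes. It was the highest for only 2 of 12 dynein assembly genes and 1 of 13 regulators. Summed central pair genes stood at 3180 CPM in control 3, 1888 in androstenone 1 and 1942 in androstenone 2, against 445 to 680 in the cilia-poor libraries. The dynein assembly genes, in contrast, summed to 1874, 2036 and 2141 CPM in the same order.

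**Figure D3:**
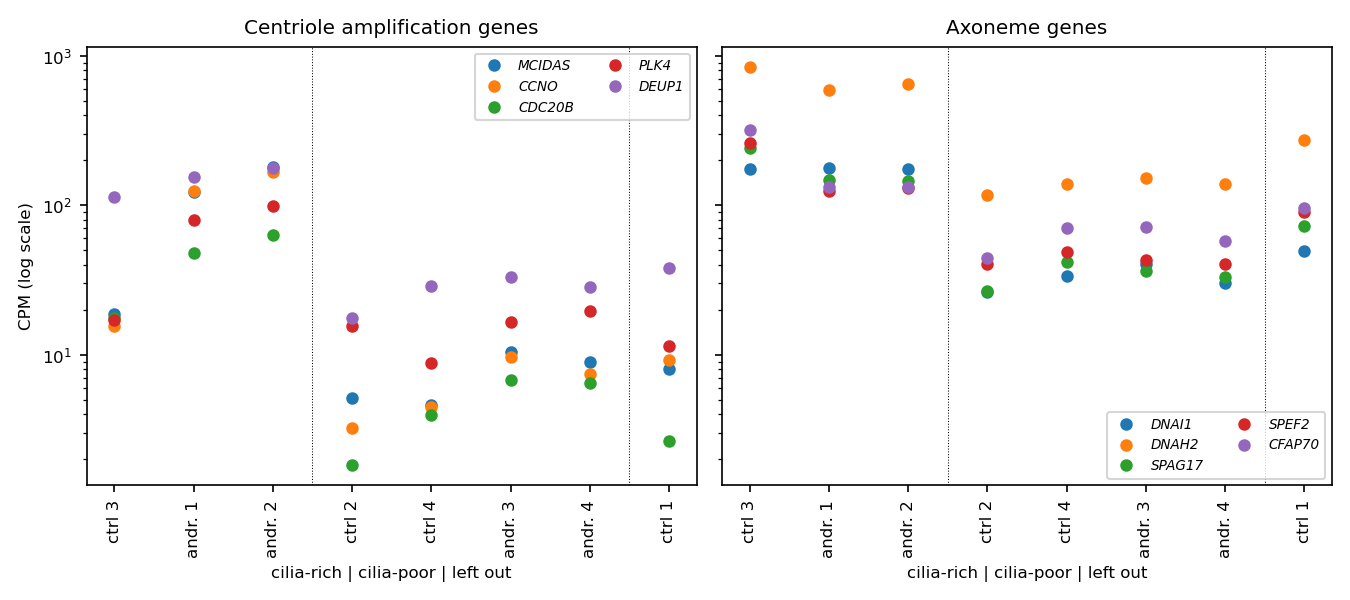
CPM (log scale) of 5 centriole amplification genes (left) and 5 axoneme genes (right) in each library, with dotted lines between the sides. MCIDAS, CCNO, CDC20B and PLK4 stand far lower in control 3 than in androstenone 1 and androstenone 2, while SPAG17, SPEF2 and CFAP70 stand highest in control 3.

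Part of the genes of other surface epithelial cells were higher in the cilia-rich libraries too. Among 8 measured genes of airway secretory cells, 4 were higher, against 11.0% of all genes, and none was lower, with a median log2 ratio of 1.99. AGR2, a protein disulfide isomerase of mucus-making cells, stood at 293, 548 and 599 CPM in control 3, androstenone 1 and androstenone 2, against 47.0 to 115.8 in the cilia-poor libraries. SPDEF, the transcription factor of goblet cells, was 5.60-fold higher, and TFF3, a trefoil peptide secreted with mucus, was 4.56-fold higher. CYP2F1, a cytochrome of the airway, was 3.44-fold higher, though reads of cytochrome P450 genes may be shared among close relatives.

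The secretoglobin SCGB1A1, a marker of club cells, was not separated. It stood at 299, 117 and 58.2 CPM in control 3, androstenone 1 and androstenone 2. In the cilia-poor libraries it ranged from 2.33 CPM in androstenone 4 to 401 in control 2, and control 1 had the most, 1145 CPM. SCGB1A1 was named after its values were seen.

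Of 10 genes that mark sustentacular cells, the supporting cells of the olfactory epithelium, 5 were higher, against 11.0% of all genes, and none was lower. The other 5 were neither. The median log2 ratio of the list was 0.92, with a range from -1.52 to 1.63. UGT2A1, CYP2G1 and SOX2 of the list were not matched and so were not measured. SEC14L3, a lipid transfer protein, was 3.02-fold higher. CYP2A19, another cytochrome P450 gene, stood at 1073, 1775 and 2123 CPM against 424 to 624. KRT18 was 2.97-fold higher and FMO2, a monooxygenase, was 2.09-fold higher. Keratin 18 and keratin 8 are shared by many simple epithelia, the respiratory epithelium included.

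Ionocytes, sparse epithelial cells that handle ions, had 4 of 7 genes higher (11.0% of all genes), among them ATP6V0A4 at 3.10-fold, BSND at 2.73-fold and FOXI1, their transcription factor, at 2.63-fold. Of 7 serous gland genes 2 were higher, again beside 11.0% of all genes. They were SCNN1A, a sodium channel subunit, and PIGR, the receptor that carries antibodies across epithelium, at 2.80-fold and 2.77-fold. None of the 4 measured tuft cell genes was separated, with AVIL at 3.80 to 8.60 CPM over the 7 libraries.

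Connective tissue and vessel genes were lower in the cilia-rich libraries. All 11 endothelial genes and all 9 genes of smooth muscle and pericytes were lower, and so were 11 of 14 fibroblast genes, against 10.1% of all genes. The median log2 ratios were -3.06, -2.93 and -3.40. FBLN1 marked the division, and without it 10 of 13 fibroblast genes were lower. All 31 genes remained lower without control 4, though leaving out a library cannot by itself make separated sides overlap.

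CDH5, the cadherin of endothelial junctions, stood at 5.32, 9.57 and 2.88 CPM in control 3, androstenone 1 and androstenone 2. In control 2, control 4, androstenone 3 and androstenone 4 it stood at 50.8, 107.8, 102 and 84.2 CPM, 15.4-fold higher. CLDN5, the claudin of vessels, was 14.6-fold higher in the cilia-poor libraries, EMCN 11.5-fold and TEK, the angiopoietin receptor, 8.34-fold. Androstenone 1 held the most CPM of the cilia-rich libraries for each of these 4 genes.

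ACTA2, the actin of smooth muscle, stood at 30.9, 14.4 and 5.97 CPM in control 3, androstenone 1 and androstenone 2. It stood at 433, 236, 170 and 121 CPM in the cilia-poor libraries, with control 2 the highest. RGS5, a gene of pericytes, was 12.7-fold higher in the cilia-poor libraries, TAGLN 10.5-fold and CNN1 11.8-fold. CNN1 owed its highest value, 39.2 CPM, to control 2, and the other cilia-poor libraries held 2.17 to 4.11.

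PDGFRB, a receptor of fibroblasts and pericytes, stood at 12.9, 29.4 and 9.17 CPM on the cilia-rich side in the same order. It stood at 275, 384, 219 and 183 CPM on the other, a 16.7-fold difference. DCN, the matrix proteoglycan decorin, stood at 48.0 to 79.8 CPM on the cilia-rich side and at 390 to 807 in the cilia-poor libraries other than control 4, which held 2605. LUM, another matrix proteoglycan, and PDGFRA, a second fibroblast receptor, were 10.6-fold and 12.5-fold higher on the cilia-poor side. The exceptions were COL1A1 and COL1A2, described below, and DPT, named after its values were seen.

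Basal cells, the stem cells of the airway and olfactory surface, gave a different picture. Only 1 of 8 genes, ITGA6, was lower in the cilia-rich libraries, beside 10.1% of all genes. It stood at 10.8 to 16.5 CPM against 46.7 to 73.5. KRT15, a basal keratin, stood at 12.6, 32.2 and 9.68 CPM in control 3, androstenone 1 and androstenone 2. It stood at 101.3 in control 2, 567 in androstenone 3 and 165 in androstenone 4, but at 19.6 CPM in control 4, inside the cilia-rich range. TP63, the master regulator of basal cells, was likewise at 17.9 CPM in control 4, against 11.6 to 44.9 on the cilia-rich side and 83.5 to 274 in the other cilia-poor libraries. Without control 4, 7 of the 8 genes were lower, against 11.0% of all genes, with a median log2 ratio of -2.33. KRT15 and TP63 were named after their values were seen.

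Nerve and immune cells were less divided. Over all genes, 11.0% were higher in the cilia-rich libraries and 10.1% were lower, and without control 4 the shares were 11.6% and 11.0%. Of 6 measured genes of ensheathing glia and Schwann cells, SOX10, their transcription factor, was lower at 0.147 to 1.11 CPM against 2.24 to 30.6, and PRX was lower too, while ERBB3, a receptor shared with epithelia, was higher at 2.62-fold. Of 10 macrophage genes, 3 were lower (MRC1 at 5.83-fold, CSF1R at 3.43-fold and CD14 at 2.26-fold) and 5 without control 4. None of the 9 genes of T and NK cells and none of the 10 of B and plasma cells was separated in either direction. JCHAIN, the joining chain of secreted antibodies, ranged from 2272 to 7713 CPM on the cilia-rich side and from 1054 CPM in control 4 to 9582 on the other. The 13 mitochondrial genes had a median log2 ratio of 0.26 with none separated, and of 9 proliferation genes, TPX2 and AURKB were lower at 2.08-fold and 2.07-fold, and 4 were lower without control 4. In 3 short lists a single gene was higher in the cilia-rich libraries, which beside the 11.0% of all genes is no result about these lists. These were CXCL8, a chemokine that draws neutrophils, of 4 neutrophil genes (2.82-fold), NR4A3 of 12 immediate early genes (2.78-fold) and NEB of 2 skeletal muscle genes (2.31-fold). None of 4 erythroid genes was separated.

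**Figure D4:**
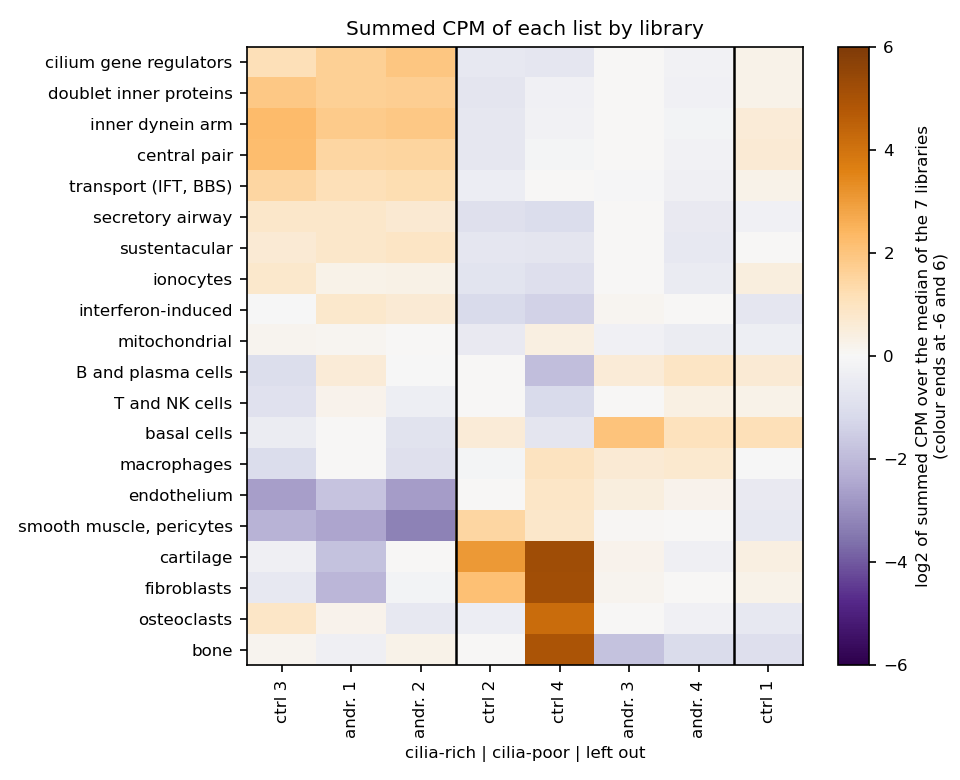
Summed CPM of 20 gene lists in each library, as the log2 of its ratio to the median of the 7 libraries (orange higher, violet lower). Cilium lists are orange in the 3 cilia-rich libraries, endothelium and smooth muscle are violet there, and bone, osteoclast, fibroblast and cartilage genes are darkest in control 4.

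Control 4 was set apart from all other libraries by bone. Its 11 matched bone genes summed to 24063 CPM, against 225 to 931 in the other 7 libraries, and the 8 osteoclast genes summed to 9079 CPM against 328 to 921. SPP1, the bone matrix protein osteopontin, stood at 11738 CPM in control 4 and at 129 to 588 in the others. IBSP, bone sialoprotein, stood at 4931 CPM against 6.67 to 174, and CTSK, the protease of osteoclasts, at 4499 against 159 to 464. Control 4 was the highest of the 8 libraries for 10 of 10 measured bone genes and 7 of 7 osteoclast genes. Only 8 and 5 of them reached a mean of 1 CPM without control 4. The others were measured only through that library and add no support.

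None of these 17 genes was called higher or lower with control 4 in place. The sides of 1 of them, TCIRG1, a proton pump subunit of osteoclasts, did not overlap, but its log2 ratio of -0.62 missed the 2-fold limit. Over all 15919 genes, 3074 were lower without overlap at any ratio. Without control 4, 8 bone and 5 osteoclast genes reached a mean of 1 CPM. Of these, 2 bone genes and 1 osteoclast gene were higher in the cilia-rich libraries, beside 11.6% of all genes, and none was lower. SPP1 among them had a log2 ratio of 1.50 in place of -0.03. So the bone signal belonged to 1 library rather than to the cilia-poor side. Cartilage genes were lower in the cilia-rich libraries for 7 of 11, against 10.1% of all genes. Without control 4, 9 cartilage genes reached a mean of 1 CPM and 6 were lower, against 11.0% of all genes. MATN3, a cartilage matrix protein, was 20.1-fold lower and was at 0.752 CPM in control 4 against 5.98 to 17.5 in the other cilia-poor libraries, and COMP lost its separation without control 4.

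The collagen genes had the most counts in control 4. COL1A1 and COL1A2, the chains of type I collagen of bone, tendon and skin, stood there at 145059 and 156373 CPM. In the other cilia-poor libraries COL1A1 stood at 12522 in control 2, 1883 in androstenone 3 and 1772 in androstenone 4. The cilia-rich libraries held 3011, 646 and 3696 CPM in control 3, androstenone 1 and androstenone 2, so that type I collagen overlapped between the sides with and without control 4. COL3A1, the collagen of loose connective tissue, did separate, at 404 to 647 CPM against 2604 to 31518.

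Across all genes, 1656 of the 1758 higher genes (94.2%) and 1412 of the 1611 lower genes (87.6%) kept their call without control 4, while 102 and 199 lost it. A further 201 and 350 were called only without it, which gave 1857 higher (11.6%) and 1762 lower (11.0%) of 15971 genes. Leaving out a library cannot by itself make separated sides overlap, so high shares of kept calls follow in part from the rule itself. Control 4 was the highest cilia-poor library for 58.5% of the lower genes. Among the lower genes, OLFML2B, HAPLN1, RANBP3L, GJA1, SPARC and C1QTNF6 moved the most without it and still kept their call. GJA1, the gap junction protein connexin 43, stood at 1514 CPM in control 4 and at 58.8 to 93.9 in the other cilia-poor libraries, against 27.7 to 29.8 on the cilia-rich side. Control 1 lay between the sides for 47.6% of the higher and 41.6% of the lower genes.

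**Figure D5:**
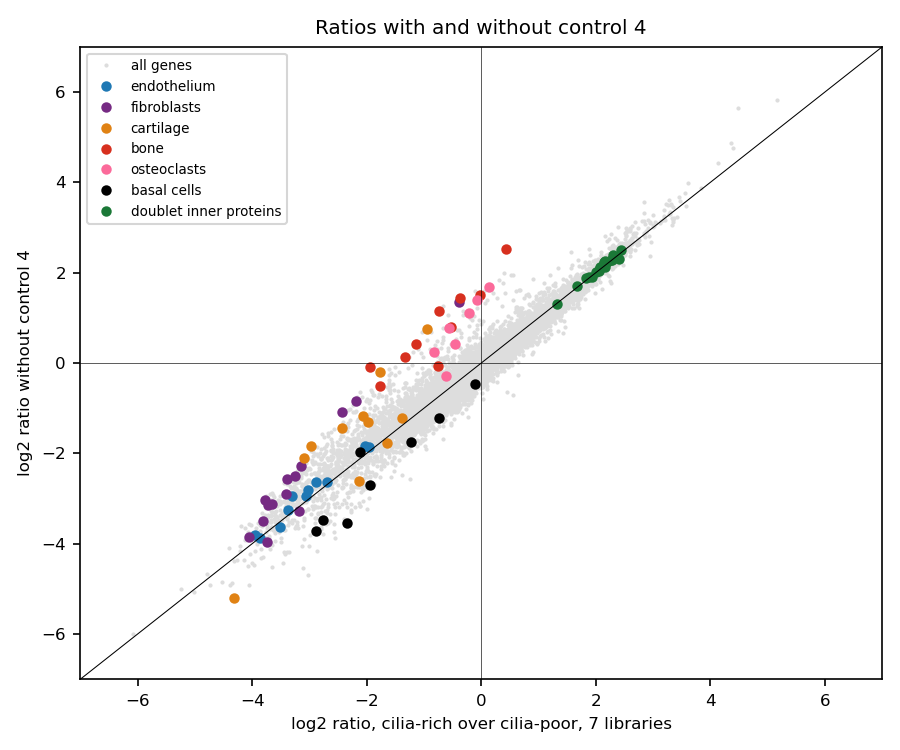
Log2 ratio of cilia-rich over cilia-poor libraries with all 7 libraries (x axis) and without control 4 (y axis) for all 15919 genes (grey) and 7 lists (colours), with the line of equality. Doublet protein and endothelial genes lie along the line, bone and osteoclast genes lie far above it, and most basal cell genes lie below it.

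Over all named genes, the 12 higher genes with the widest empty interval between the sides included DNALI1 of the axoneme lists and KIF17 of the transport list. MSMB, a secreted protein of mucosal glands, had the largest ratio of the 12. It stood at 712, 2074 and 2486 CPM in control 3, androstenone 1 and androstenone 2, against 57.7 to 155 in the cilia-poor libraries, a 17.6-fold difference. KEL, the Kell blood group metalloprotease, stood at 44.0, 69.9 and 115.7 CPM against 3.69 to 9.02, and CCNA1, a cyclin, at 176, 280 and 299 against 16.9 to 36.8. All 3 genes were lowest in control 3 within the cilia-rich side.

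PRSS54, a protease-like gene, was 9.70-fold higher and almost level on the cilia-poor side, at 1.59 to 1.70 CPM. The others were DNALI1 and KIF17, described above, ARMH1 (5.91-fold), EML6 (5.54-fold), APOH (7.99-fold), CDKL4 (6.27-fold), PPIL6 (5.36-fold) and ENO4 (5.67-fold).

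Among the 12 lower genes with the widest interval, ELN, the elastin of elastic fibres, stood at 5.87, 10.6 and 4.07 CPM in control 3, androstenone 1 and androstenone 2. The cilia-poor libraries held 210, 115, 192 and 188 CPM, 26.7-fold more. NID1, of the basement membrane, was 21.2-fold lower in the cilia-rich libraries, MFAP4, of elastic fibres, 20.0-fold, COL4A2, of the basement membrane, 18.6-fold, and COL8A2 18.3-fold.

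CD248, a marker of pericytes and fibroblasts, and ADGRA2, a receptor of vessel growth, were 17.4-fold and 17.1-fold lower. The remaining ones were TMEM47 (16.6-fold), PI15 (13.6-fold), GAS1 (13.5-fold), IGF1 (12.9-fold), a growth factor, and CPAMD8 (a log2 ratio of -3.59). All 24 genes with the widest intervals kept their call without control 4, which intervals and ratios of this size made nearly certain.

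The labels of spraying took no part in the division, and the spraying comparison was therefore tested, over all 8 libraries with edgeR's quasi-likelihood test. It called 1368 of 21318 genes (6.42%) at an unadjusted p below 0.05 and a log2 fold change of at least 1 in size, 434 (2.04%) up and 934 (4.38%) down in the androstenone libraries. None passed a Benjamini-Hochberg adjusted p of 0.05, at which DESeq2 called 670, and 2415 had an unadjusted p below 0.05. The smallest adjusted p was 0.0675. As each group held 2 sows, these p-values measure the spread between libraries, which in part came from the same animal.

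None of the 84 axoneme and assembly genes was called, and their smallest unadjusted p was 0.171 in edgeR. This rested on control 3, since without that library 24 of the 84 were called up and none down. Over all genes, the calls in either direction then rose from 1368 to 2414. The share called up among them is not given here, so 24 of 84 has no matching background. FOXJ1 differed by 0.82 ± 0.61 on the log2 scale (SE, 4 androstenone against 4 control libraries, edgeR adjusted p = 0.606). STOML3, FBLN1 and ANO2 were not called either, with adjusted p of 0.811, 0.932 and 0.982 in edgeR. A p that misses the threshold does not show that the groups were alike.

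Of 13 regulators, 3 were called up by the unadjusted rule, MCIDAS, CCNO and PLK4, against 2.04% of all genes. Their log2 fold changes in edgeR were 3.13 ± 1.04, 3.25 ± 1.08 and 2.02 ± 0.60 (SE, 4 against 4 libraries), with adjusted p of 0.416, 0.416 and 0.399. By DESeq2 the adjusted p were 0.0322, 0.0304 and 0.0392. The count of 3 became 7 without control 3, 4 without androstenone 3 or androstenone 4, 1 with the replicate number as a block and 0 without controls 1 and 4 together. The calls over all genes in either direction were then 2414, 1182 and 1359, 583 and 881, in that order, against 1368.

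Within the cilia-rich side, CCNO was 9.18-fold higher in the geometric mean of the androstenone libraries than in control 3, and within the cilia-poor side 2.21-fold higher than in control 2 and control 4. CDC20B was 3.12-fold and 2.41-fold higher. MCIDAS was 7.88-fold and 1.97-fold higher and PLK4 5.18-fold and 1.54-fold, so that neither reached 2-fold on the cilia-poor side. Over all genes, 185 of 15919 (1.16%) were at least 2-fold higher in androstenone libraries with no overlap on both sides, and 111 (0.697%) were lower on both. No test was made of these, since the cilia-rich side holds a single control library.

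Of 14 interferon-induced genes, 9 were called up with androstenone without adjustment (smallest adjusted p = 0.378 in edgeR), against 2.04% of all genes. The count was 6 without control 4, 13 without control 3 and 5 without controls 1 and 4 together. In the same settings 1052, 2414 and 881 of all genes were called in either direction. Of these 14 genes, 3 were also higher in the cilia-rich libraries, beside 11.0% of all genes. They were IFIT2, MX2 and IFIT3, and IFIT3 lost that call without control 4. Within the sides, OAS1, OAS2, RSAD2 and CXCL10 were at least 2-fold higher in the androstenone libraries on both. OAS2 was 3.13-fold higher on the cilia-rich and 3.31-fold on the cilia-poor side. Of 7 tested neutrophil genes, 3 were called up without adjustment, again beside 2.04% of all genes. They were CSF3R, S100A8 and S100A12, and they were likewise higher in the androstenone libraries on both sides. S100A12, a calcium-binding protein of neutrophils, stood at 41.7 CPM in control 3, 107 in androstenone 1 and 179 in androstenone 2. It stood at 5.48 and 17.0 CPM in control 2 and control 4, and at 78.5 and 102 in androstenone 3 and androstenone 4.

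The bone and osteoclast lists were called down with androstenone for 17 of 19 genes without adjustment, against 4.38% of all genes, with a median log2 fold change of -3.50 and a smallest adjusted p of 0.393 in edgeR. Without control 4, 2 of the 19 were called, where 1052 of all genes were called in either direction. With control 4 in place the count was 8 without androstenone 1, 10 without androstenone 2, 5 without androstenone 3 and 4 without androstenone 4, and it was 7 by DESeq2 and 2 with the replicate block. Calls over all genes in either direction were then 867, 881, 1182, 1359, 1489 and 583, in that order. Of 15 fibroblast genes, 6 were called down. Without control 4 there was 1, without androstenone 1 there were 3, without androstenone 2 or androstenone 3 there were 4, and with the block there were 0, and none of the 11 endothelial genes was called with all libraries.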

How the data were processed

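The libraries were sequenced as paired-end reads. Per the submitters' processing notes and the study's methods, the authors used fastp 0.23.1 to clean reads and kallisto 0.48.0 to estimate transcript levels against Sscrofa11.1. They deposited, for 22516 genes, an estimated count, which need not be whole, and a TPM value, which corrects for transcript length and library size. The step from transcripts to genes is not stated. The deposited counts equal TPM times a constant per gene and per library to within 7.2e-08% over 10898 genes.

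Counts were rounded to whole numbers. The name table matched 15527 genes. Libraries were grouped by their labels, and the sides followed the given division. The members, the 34 gene lists (382 of 432 genes matched) and the tests were chosen with earlier results of these data known. Named genes were the 4 markers, up to 4 genes a list by the width of the interval between the sides (with none separated, the 2 with the most CPM), the 12 with the widest interval in each direction, the 6 that moved most without control 4 and the 6 with the most counts in it. Other genes were named after their values were seen. Genes with at least 1 count were tested with TMM and edgeR 4.0.16 (R 4.3.3), without a block. The SE given for edgeR is the absolute log2 fold change over the square root of the F of its test. Like the p-values, it measures the spread between libraries and not between sows. Same-numbered libraries of the groups came from different sows, so they share no animal. Their deviations from the group means had r = -0.0351, -0.498, -0.599 and 0.173 for numbers 1 to 4. These were set against no other pairing and so cannot decide whether the numbers pair the libraries. The edgeR script was tested on simulated data. Alternatives were DESeq2 1.42.0, other normalizations and filters, the replicate block, other ratio and CPM limits, other places for control 1, and each library left out. Floors are 3 counts and cover counting error only. Sequences were not used here.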

Additional observations from a re-analysis of the deposited data

Results flagged for a closer look

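Summed CPM of each list was checked within the control group, the androstenone group and the cilia-poor side, each of 4 libraries, by the gap of the highest or lowest library to its nearest neighbour over the whole range. Dixon's 95% critical value was passed in 8 of 114 groups, which were more than the list sums alone. Chance flags about 1 in 20, but these groups share libraries and are not independent. Control 4 stood apart in 6 of the 8, with the same lists flagged among the controls and among the cilia-poor libraries. Its fibroblast genes summed to 347558 CPM, against 6444 to 41644 in the other controls and 9618 to 41644 in the other cilia-poor libraries. Its bone genes summed to 24063 CPM, against 400 to 876 and 225 to 775, and its osteoclast genes to 9079 CPM, against 328 to 921 and 381 to 497. Control 2 stood apart from the other controls in proliferation genes, with 333 CPM against 128 to 143. Androstenone 3 stood apart from the other cilia-poor libraries in sustentacular genes, with 2775 CPM against 1691 to 1869.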

How the results depend on the processing

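The counts of genes higher and lower in the cilia-rich libraries (1758 and 1611) ranged from 1706 to 1964 and from 1583 to 1818 with each library left out in turn. A ratio of at least 4 gave 445 and 732, counting control 1 as cilia-rich gave 851 and 699, and a mean of at least 10 CPM gave 977 lower genes. The ratios of the 4 markers kept their direction under every alternative run.

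The 1368 calls of androstenone against control became 583 with the replicate block, and none passed adjustment. With each library left out they ranged from 867 (without androstenone 1) and 881 (without androstenone 2) to 2414 (without control 3). Without controls 1 and 4 together, an alternative added after the values were seen, there were 881. After adjustment there was 1 call with library size only and 670 with DESeq2, against 0. The cause was not tested.

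Marker genes of small difference changed sign. STOML3 (0.40 on the log2 scale) was at -0.0297 without controls 1 and 4. FBLN1 (0.27) was at -0.48 with the block and between -0.37 and 0.66 with a library left out. ANO2 (-0.07) was at 0.0093 with library size only, at 0.0588 without controls 1 and 4, and between -0.60 and 0.28 with a library left out.

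Depth limits control 1, at 4178330 counts. The 3 cilia-rich libraries hold 1 control.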
